A study of Mus musculus with 12 samples.

Results

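The 10 human miRNAs described here, without a single count in serum drawn before human tumour cells were injected, but with counts after it, are given mouse by mouse and beside their mouse orthologs. They were miR-345-5p (MIMAT0000772), miR-483-3p (MIMAT0002173), miR-1307-5p (MIMAT0022727), miR-1307-3p (MIMAT0005951), miR-500a-3p (MIMAT0002871), MIMAT0004951, miR-28-3p (MIMAT0004502), miR-339-3p (MIMAT0004702), miR-769-5p (MIMAT0003886) and miR-330-3p (MIMAT0000751), and they made up 10 of the 466 miRNAs listed in the human tables. MIMAT0004951 is given by accession only. They were picked for 0 counts in all 6 libraries drawn before injection, so their own difference between time points is given as a description without a test.

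Serum came from 3 female athymic NCr nude mice, numbered 1046, 1047 and 1069. They carried no treatment at the first draw, 1 week before injection. The age given for them, 4 to 6 weeks, is that at which the tumour cells were implanted. The second draw was made 2 weeks after SH-SY5Y cells, an established human neuroblastoma cell line, had been placed under the renal capsule. RNA from 50 μl of each serum was divided into 2 aliquots, and 1 of them was depleted of 5′ tRNA fragments, which dominate libraries of murine serum. This gave 4 groups of 3 libraries, in which each mouse occurs once per group. Athymic mice lack mature T cells but keep other blood cells. No mice without tumour cells were analysed here at the later draw, so tumour growth and elapsed time cannot be told apart. All tumour cells came from 1 cell line.

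The miRNAs are short RNAs that are cut as a pair of arms, 5p and 3p, from a hairpin precursor and that guide the silencing of messenger RNAs mainly through their seed, bases 2 to 8. In serum they circulate in vesicles or bound to proteins, and much of the serum pool is shed by blood cells. Because many miRNAs are identical in mouse and human, a read can tell the species apart only where the mature sequences differ.

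Each library had 1 human and 1 mouse table of read counts. Human-table totals were 1729906 to 3854909 in depleted libraries before injection and 2704131 to 3175654 after it. In undepleted libraries they were 34472 to 188479 before and 70605 to 101005 after injection. The depleted ranges overlapped, but the first depleted library of mouse 1069, at 1729906, was the shallowest of them, and an absence in undepleted libraries was read at low depth. Red blood cell miRNAs, described below, took up 61.5% to 70.1% of the human-table counts in depleted libraries before injection and 42.6% to 52.4% after it.

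The mature sequences of the mouse orthologs are shown because the counts of the human miRNAs are read against them. The miRNAs are printed 5′ to 3′ with the seed in capitals, as RefSeq gives them on GRCm38.p6. Human sequences were not used here. For miR-1307-5p, miR-1307-3p, miR-769-5p and MIMAT0004951 no mouse row was used.
mmu-miR-345-5p: gCUGACCCcuaguccagugcuu
mmu-miR-483-3p: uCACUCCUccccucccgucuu
mmu-miR-500-3p: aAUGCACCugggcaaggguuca
mmu-miR-28a-3p: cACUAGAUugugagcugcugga
mmu-miR-339-3p: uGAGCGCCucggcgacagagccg
mmu-miR-330-3p: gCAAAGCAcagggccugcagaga

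In the mouse genome all 6 lie on the strand of a protein-coding gene. The miR-345-5p sequence is at chr12:108836989-108837010 (plus strand) in an intron of Slc25a47, which encodes a mitochondrial carrier. The miR-483-3p sequence is at chr7:142654932-142654952 (minus strand) in an intron of Igf2, the imprinted gene of a fetal growth factor. For miR-500-3p the position is chrX:7237695-7237716 (minus strand), in an intron of the chloride transporter gene Clcn5. An intron of Lpp holds miR-28a-3p at chr16:24827908-24827929 (plus strand), and an intron of 3110082I17Rik holds miR-339-3p at chr5:139369673-139369695 (minus strand). miR-330-3p is at chr7:19181525-19181547 (plus strand), in an exon of Eml2, which encodes a microtubule-associated protein. No seed was shared among the 6. Among 1738 mouse mature entries searched, the seed of miR-500-3p also occurred in miR-501-3p and that of miR-330-3p in miR-6240.

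First, the level of each human miRNA was followed in the 3 mice after injection. In depleted libraries the 10 miRNAs held 43 counts in mouse 1046, 91 in mouse 1047 and 462 in mouse 1069, or 596 in all. In counts per 1000000 human-table counts (CPM) these were 15.3 (95% exact binomial interval 11.1 to 20.6), 33.7 (27.1 to 41.3) and 145 (133 to 159). The intervals of the 3 mice were apart from each other. They cover counting error only, since PCR copies of a molecule cannot be told from separate molecules without molecular identifiers. Before injection the same miRNAs had 0 counts, which allows up to 1.16, 0.778 and 1.73 CPM in the depleted libraries of mice 1046, 1047 and 1069, at 3 counts per library.

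The sum in CPM was 9.50 times higher in mouse 1069 than in mouse 1046 and 4.32 times higher than in mouse 1047, and mouse 1047 exceeded mouse 1046 by 2.20 times. In serum, more cells that release an RNA and more RNA per cell cannot be told apart. Mouse 1069 held 77.5% of all 596 counts. The mean over the mice was 64.8 ± 70.5 CPM (SD, n = 3), a spread as wide as the mean, and without mouse 1069 the mean was 24.5.

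**Figure D1:**
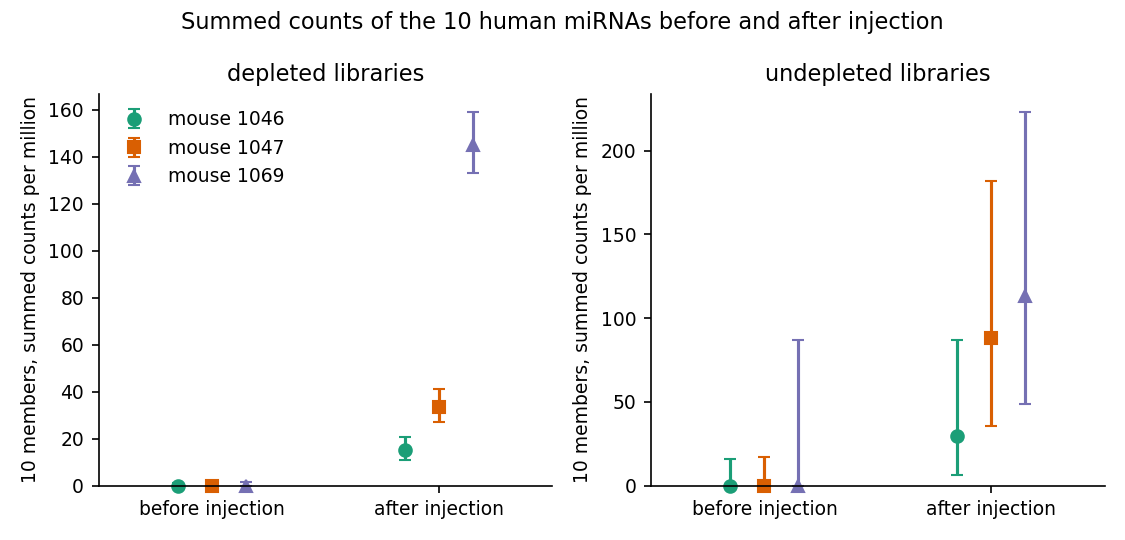
Summed counts of the 10 human miRNAs per 1000000 human-table counts (CPM, y axis) before and after injection (x axis) in depleted and undepleted libraries, with 1 point per mouse. Bars after injection are 95% exact binomial intervals, and bars at 0 reach the level that 3 counts would give; in depleted libraries mouse 1069 stands at 145 CPM, above mouse 1047 at 33.7 and mouse 1046 at 15.3.

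Undepleted aliquots of the same sera gave 3, 7 and 8 counts in mice 1046, 1047 and 1069, or 29.7 (6.13 to 86.8), 88.1 (35.4 to 182) and 113 (48.9 to 223) CPM. The order of the mice was the one seen after depletion, but the intervals overlapped throughout. Before injection, 0 counts in undepleted libraries allow up to 15.9, 17.4 and 87.0 CPM, so the shallow first library of mouse 1069 could have missed a level not far under its later one. With 18 counts in all, 7 of the 10 miRNAs were counted in an undepleted library.

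Summed over the mice, miR-345-5p, miR-483-3p and miR-1307-5p had the highest counts, most of them in mouse 1069. miR-345-5p had 3, 21 and 98 counts in the depleted libraries of mice 1046, 1047 and 1069, which is 1.07, 7.77 and 30.9 CPM. miR-483-3p, whose precursor lies within the gene of insulin-like growth factor 2, had 2, 4 and 102 counts (0.71, 1.48 and 32.1 CPM). miR-1307-5p had 8, 14 and 82 counts (2.85, 5.18 and 25.8 CPM). All 3 were highest in mouse 1069. The counts of miR-483-3p in mice 1046 and 1047 differed little from each other and lay far under its count in mouse 1069.

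Of the other members, miR-500a-3p belongs to an X-linked family with near-identical copies, whose reads the authors' counting may have split or shared. It had 8, 5 and 57 counts (2.85, 1.85 and 17.9 CPM), so the level in mouse 1069 stood apart from the other two. The arm miR-28-3p comes from a hairpin in the adhesion gene LPP and had 7, 2 and 31 counts (2.49, 0.74 and 9.76 CPM). These were the only 2 of the 10 that were lower in CPM in mouse 1047 than in mouse 1046.

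MIMAT0004951 had 7, 21 and 22 counts (2.49, 7.77 and 6.93 CPM), and it was the only one of the 10 whose level was not highest in mouse 1069. miR-339-3p had 1, 7 and 29 counts (0.36, 2.59 and 9.13 CPM). The values of miR-769-5p were 1, 6 and 19 counts (0.36, 2.22 and 5.98 CPM). Both rested on a single count in mouse 1046.

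The lowest sums over the mice were those of miR-1307-3p, with 6, 6 and 11 counts (2.14, 2.22 and 3.46 CPM), and miR-330-3p, with 0, 5 and 11 counts (0, 1.85 and 3.46 CPM). Within mouse 1046, however, miR-1307-3p was above miR-345-5p and miR-483-3p. The 0 of miR-330-3p in mouse 1046 was the only missing value, and at 3 counts it allows up to 1.07 CPM. Thus 9, 10 and 10 of the miRNAs had a count in mice 1046, 1047 and 1069, and 5, 9 and 10 reached 4 counts, the detection cut-off of the study. In all 3 mice, 4 of the 10 reached that cut-off.

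**Figure D2:**
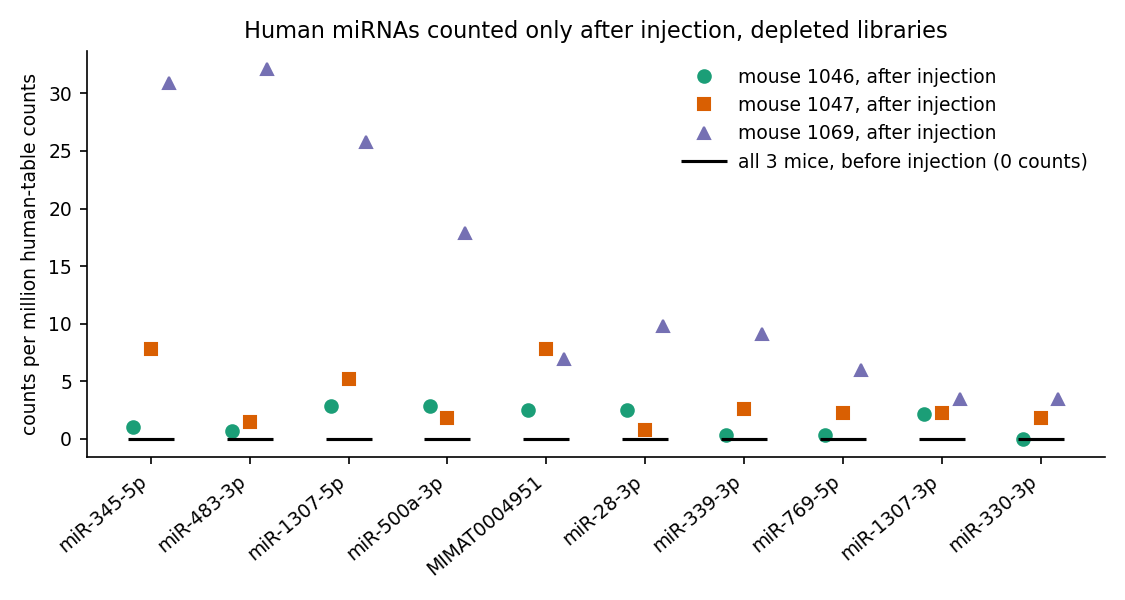
Counts per 1000000 human-table counts (CPM, y axis) of each of the 10 human miRNAs (x axis, ordered by summed count) in depleted libraries after injection, with 1 symbol per mouse and a bar at the 0 counts before injection. For 9 of 10 miRNAs the highest point is mouse 1069, and for MIMAT0004951 it is mouse 1047.

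The make-up of the sum also differed among the mice. miR-483-3p made up 4.65% (95% exact binomial interval 0.568% to 15.8%) of the 10 in mouse 1046, 4.40% (1.21% to 10.9%) in mouse 1047 and 22.1% (18.4% to 26.1%) in mouse 1069. MIMAT0004951 went the other way, at 16.3% (6.81% to 30.7%), 23.1% (14.9% to 33.1%) and 4.76% (3.01% to 7.12%). Its interval in mouse 1069 lay below that of mouse 1047 and overlapped that of mouse 1046. For miR-1307-5p the share was 18.6% (8.39% to 33.4%), 15.4% (8.67% to 24.5%) and 17.7% (14.4% to 21.5%). The mice therefore differed in the share of single miRNAs, with miR-483-3p prominent in mouse 1069. The share of miR-1307-5p was close in all of them, within wide intervals.

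Both arms of the miR-1307 hairpin were among the 10. The 5p arm took 57.1% (28.9% to 82.3%) of their joint counts in mouse 1046, 70.0% (45.7% to 88.1%) in mouse 1047 and 88.2% (79.8% to 93.9%) in mouse 1069. The intervals of all 3 mice overlapped. The 5p arm was the more abundant in each mouse, by 2 counts in mouse 1046.

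The other arm of the miR-483 hairpin, human miR-483-5p, was not chosen but also had 0 counts before injection in depleted libraries, and 1, 0 and 34 counts after it. The 3p arm held 75.0% (66.9% to 82.0%) of the 136 counts of both arms in mouse 1069. The 34 counts of miR-483-5p in mouse 1069 did not make a call (DESeq2 log2 fold change 0.58 ± 0.37 SE, adjusted p = 0.347, higher in 2 of 3 mice). With edgeR its adjusted p was 0.0401. Its fitted fold change depends on the prior, since the earlier libraries were all at 0. The mouse arm miR-483-5p had 1 count in all 12 libraries, in the undepleted library of mouse 1069 before injection.

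The background of such a pattern was counted over the whole tables. A human-table miRNA with 0 counts in all 6 libraries before injection and at least 4 counts in 2 or more depleted libraries after it occurred 14 times among 466, or 3.00%. The reverse, present before and at 0 in all 6 libraries after, occurred 1 time (0.215%). In the mouse tables, 3 of 874 miRNAs (0.343%) met the rule in each direction. Since the 10 were picked by this contrast, these shares are a description.

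Without a minimum count the patterns were more common. Of the 466 human-table miRNAs, 99 (21.2%) had a count only after injection and 20 (4.29%) only before it. In the mouse tables, counts only after injection were found for 146 miRNAs (16.7%) and only before it for 94 (10.8%). Of the human miRNAs absent before, 92 were counted in a depleted library after injection, and 48 of these summed to under 4 counts.

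The 4 other human-table miRNAs that met the rule in depleted libraries were MIMAT0022717, with 0, 7 and 39 counts in mice 1046, 1047 and 1069, MIMAT0030021, with 0, 6 and 39, MIMAT0004799, with 1, 7 and 15, and MIMAT0016888, with 1, 5 and 4. Of these, 3 were highest in mouse 1069. A further 7 missed the rule through 1 to 3 counts before injection. Among them MIMAT0000757 had 2 counts in the first depleted library of mouse 1046 and 10, 22 and 111 counts after injection, while MIMAT0004958 had 3 counts in that of mouse 1047 and 0, 6 and 23 after. The other 5 had 0 to 10 counts in a depleted library after injection, and none of them was highest in mouse 1069.

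The profile of the 10 over the 6 depleted libraries was then compared with every other human-table miRNA of at least 20 counts. The measure was the summed absolute difference between the shares of CPM, scaled from 0 (same profile) to 1. Of 269 human-table miRNAs compared, the nearest to the summed members were MIMAT0000757 (0.016), MIMAT0004603 (0.078, with 3, 3 and 30 counts after injection and 0 before) and MIMAT0004958 (0.120). Single members ranged from 0.020 for miR-1307-5p to 0.345 for MIMAT0004951. The nearest of 415 mouse-table miRNAs, MIMAT0027861, was at 0.201, with 1, 2 and 0 counts before injection and 2, 5 and 16 after. MIMAT0004886 followed at 0.227 and MIMAT0025177 at 0.229. MIMAT0000757 was thus closer to the summed profile than any single member. In the libraries before injection the members were at 0 by choice. A miRNA at or near 0 there therefore lies near them on that part of the profile, and the distances are a description.

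Next, the human miRNAs were read against their mouse orthologs in the same libraries, which are listed in the mouse tables with counts of their own. The human and mouse sequences were not compared. The pairs of mouse accession and name are from general knowledge of miRBase and could not be checked in a table here. No mouse row followed the counts of a member: the nearest one differed by 27.5% to 80.9% of the member's counts over the 12 libraries. For each of the 6 pairs, the human count is given as a share of human plus mouse counts. Before injection this share was 0 by the choice of the members. The limits given for that draw come from those same zeros, so they are a description and no test.

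The human form was the more abundant one for a pair of miRNAs. The mouse form of miR-345-5p had 12, 6 and 24 counts in the depleted libraries of mice 1046, 1047 and 1069 after injection, and the human form took 20% (95% exact binomial interval 4.33% to 48.1%), 77.8% (57.7% to 91.4%) and 80.3% (72.2% to 87.0%). Its ortholog had 17 counts in depleted libraries before injection, where 0 human counts over the 3 libraries together allow a share of up to 17.6%. Mouse miR-483-3p had 1, 0 and 11 counts, and the human share in mouse 1069 was 90.3% (83.2% to 95%). In mice 1046 and 1047 it rested on 3 and 4 counts in all, and the limit before injection was 42.9%. Human miR-345-5p thus outnumbered its ortholog in mice 1047 and 1069, and human miR-483-3p did so clearly in mouse 1069.

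For miR-500a-3p the forms were closer in number. The ortholog had 18, 35 and 45 counts, and the human form took 30.8% (14.3% to 51.8%), 12.5% (4.19% to 26.8%) and 55.9% (45.7% to 65.7%), against a limit of 4.41% before injection. The share in mouse 1069 lay above the interval of mouse 1047 and overlapped that of mouse 1046.

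For the remaining 3 miRNAs the mouse form dominated in the depleted libraries of all 3 mice. Mouse miR-28a-3p had 312, 382 and 393 counts, and the human form took 2.19% (0.887% to 4.47%), 0.521% (0.0631% to 1.87%) and 7.31% (5.02% to 10.2%), with a limit of 0.630% before injection. Mouse miR-339-3p had 318, 333 and 486 counts beside human shares of 0.313% (0.00794% to 1.73%), 2.06% (0.832% to 4.20%) and 5.63% (3.80% to 7.99%), with a limit of 1.29%. For miR-330-3p the mouse form had 334, 441 and 552 counts and the human form took 0% (0% to 1.10%), 1.12% (0.365% to 2.60%) and 1.95% (0.979% to 3.47%), with a limit of 1.08%. The limits given for single pairs put 3 counts over the 3 earlier depleted libraries together, so the earlier library of 1 mouse alone allows a higher share. The intervals of miR-330-3p reached below its limit in all 3 mice. Those of miR-345-5p did so in mouse 1046, and those of miR-500a-3p and miR-28-3p in mouse 1047. For miR-483-3p and miR-339-3p the intervals of mice 1046 and 1047 reached below the limit.

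**Figure D3:**
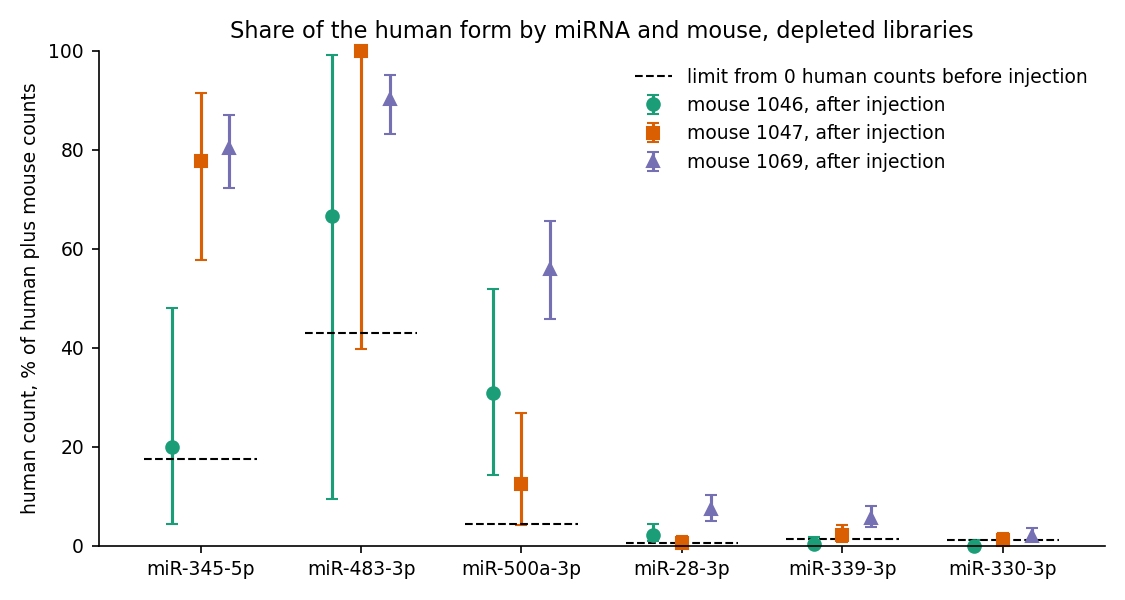
Human count as a percentage of human plus mouse ortholog counts (y axis) for the 6 miRNAs that were paired with a mouse row (x axis) in depleted libraries after injection, 1 symbol per mouse, with 95% exact binomial intervals. The dashed lines mark the share that 0 human counts over the 3 libraries before injection together allow. The miRNAs were chosen for these zeros, so the lines are no test. Human miR-345-5p and miR-483-3p reach 80.3% and 90.3% in mouse 1069, and miR-28-3p, miR-339-3p and miR-330-3p stay under 10% in every mouse.

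Over the 6 pairs together, the human forms took 2.07% (1.28% to 3.14%) in mouse 1046, 3.55% (2.59% to 4.73%) in mouse 1047 and 17.8% (16.1% to 19.7%) in mouse 1069. The mean was 7.82% ± 8.71 (SD, n = 3), and 2.81% without mouse 1069. Before injection there were 0 human counts beside 372, 455 and 252 mouse counts, which allows up to 0.806%, 0.659% and 1.19%. The order of the mice was the one of the CPM values, but both measures rest on the same human counts of these 6 miRNAs, so this order is no separate evidence. In undepleted libraries the shares were 12.0% (2.55% to 31.2%), 18.5% (6.30% to 38.1%) and 37.5% (15.2% to 64.6%) in the same order. Their mean was 22.7% ± 13.2 (SD, n = 3). The undepleted interval lay above the depleted one in mouse 1047 and overlapped it in mice 1046 and 1069, so the level of the share differed between library types in mouse 1047. The undepleted shares rest on 3, 5 and 6 human counts.

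The orthologs were not used to choose the members, so their own change could be tested. In depleted libraries, 2 of the 6 mouse orthologs were called higher after injection and none lower in DESeq2 (adjusted p under 0.05 and at least 2-fold), and 4 of the 6 passed independent filtering. Over all mouse-table miRNAs, 10.6% of the 310 tested were called, with 4.84% called higher. The median log2 fold change of the 6 orthologs, filtered out or not, was 0.30, beside -0.09 over only those mouse miRNAs that passed the filter. The 2 medians are therefore not over like sets. The 4 orthologs that passed had log2 fold changes of -0.25, 0.37, 1.38 and 1.30.

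The larger change was that of mmu-miR-339-3p. It had 74, 116 and 43 counts before injection in mice 1046, 1047 and 1069 and 318, 333 and 486 after it. In CPM of the mouse tables these were 54.9, 63.7 and 45.8 before and 179, 191 and 214 after injection, so the groups did not overlap. Normalised counts rose from 98.4 ± 29.6 to 284 ± 33.2 (SD, n = 3 each), with a DESeq2 log2 fold change of 1.38 ± 0.31 (SE, adjusted p = 5.72e-04, higher in 3 of 3 mice).

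mmu-miR-330-3p had 136, 106 and 36 counts before injection, or 101, 58.2 and 38.4 CPM. After injection these were 188, 253 and 243 CPM, again without overlap between the groups. Normalised counts rose from 119 ± 62.3 to 332 ± 55.5 (SD, n = 3 each), with a DESeq2 log2 fold change of 1.30 ± 0.34 (SE, adjusted p = 0.00212, higher in 3 of 3 mice). This call was lost without mouse 1047, where the log2 fold change was 1.14 and the DESeq2 adjusted p 0.119, and without mouse 1069, where 0.97 fell under the 2-fold cut-off.

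The orthologs of the other members made no call. mmu-miR-28a-3p had 95.7, 114 and 149 CPM before injection and 175, 219 and 173 after it (DESeq2 log2 fold change 0.37 ± 0.28 SE, adjusted p = 0.358), higher in CPM in 3 of 3 mice. mmu-miR-500-3p had 21.5, 9.89 and 22.4 CPM before and 10.1, 20.1 and 19.8 after injection (DESeq2 log2 fold change -0.25 ± 0.44 SE, adjusted p = 0.756), higher in 1 of 3 mice. Without mouse 1046 this log2 fold change turned to 0.12. The values before and after injection overlapped for mmu-miR-500-3p and did not for mmu-miR-28a-3p.

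The orthologs of miR-345-5p and miR-483-3p were scarce. mmu-miR-345-5p had 2, 7 and 8 counts before and 12, 6 and 24 after injection (log2 fold change 0.23 ± 0.52 SE), and mmu-miR-483-3p had 2, 1 and 4 before and 1, 0 and 11 after (log2 fold change -0.08 ± 0.47 SE). Neither passed independent filtering, so they have no adjusted p. In mouse 1069 after injection, the 24 and 11 counts of these mouse forms stood beside 98 and 102 of the human ones.

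**Figure D4:**
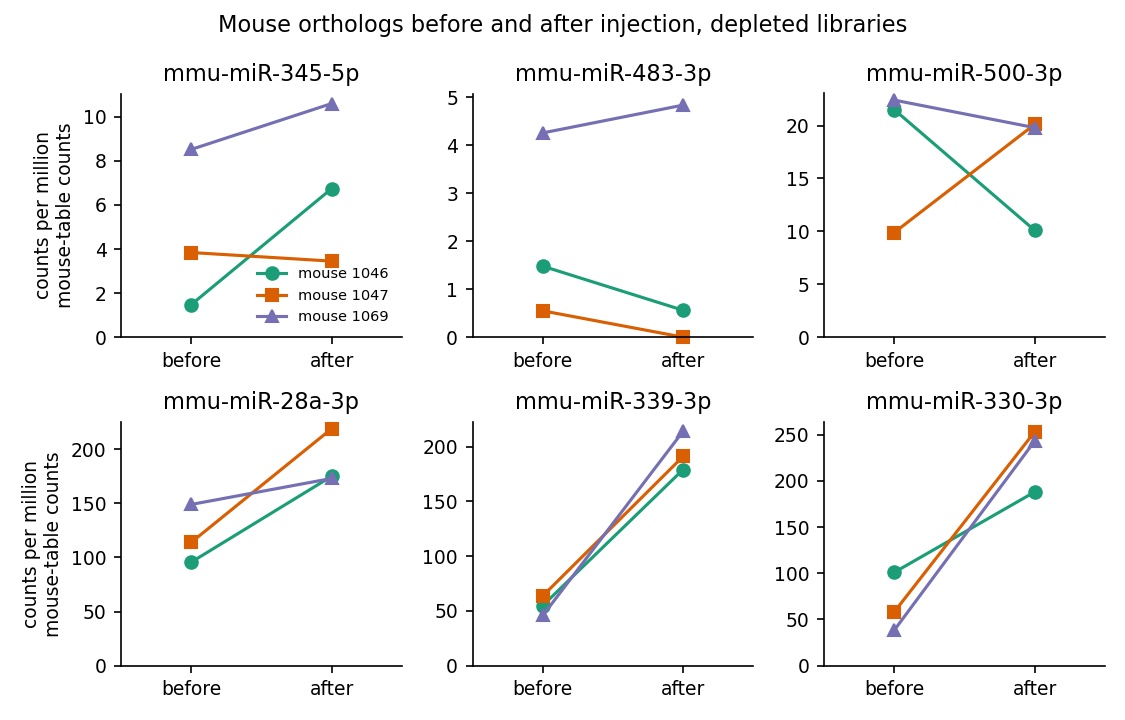
Counts per 1000000 mouse-table counts (CPM, y axis) of the 6 mouse orthologs in depleted libraries before and after injection (x axis), with lines joining the libraries of each mouse. The lines of mmu-miR-339-3p and mmu-miR-330-3p rise in 3 of 3 mice from at most 63.7 and 101 to at least 179 and 188 CPM, whereas those of mmu-miR-500-3p cross; mmu-miR-345-5p and mmu-miR-483-3p stay under 11 CPM.

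In undepleted libraries 5 of the 6 orthologs were counted and 0 passed independent filtering, so none could be called. There were 0 with an unadjusted DESeq2 p under 0.05 and 0 calls with edgeR. In these libraries 11.1% of the 108 mouse miRNAs tested were called, with 8.33% called higher and 2.78% lower. mmu-miR-339-3p had 5, 4 and 1 counts before and 6, 9 and 5 after injection, and mmu-miR-330-3p had 6, 2 and 0 before and 10, 8 and 2 after. Both were higher in CPM after injection in 3 of 3 mice, at counts too low for a call.

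The opposite arms of the members' hairpins were tested as well. Of 7 human arms in the list, 4 were counted in depleted libraries, and 1 was called higher and none lower, beside 5.26% called higher of 323 human-table miRNAs tested. Their median log2 fold change was 0.70, against -0.00 over all tested. The called one, human miR-339-5p, had 76, 79 and 28 counts before and 261, 231 and 271 after injection, and rose from 75.8 ± 30.5 to 199 ± 15.9 normalised counts (SD, n = 3 each), with a DESeq2 log2 fold change of 1.19 ± 0.34 (SE, adjusted p = 0.00635, higher in 3 of 3 mice). It was no longer called when any 1 of the mice was left out, with log2 fold changes of 1.24, 1.15 and 0.98 and DESeq2 adjusted p of 0.124, 0.291 and 0.00767 without mouse 1046, 1047 and 1069.

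Human miR-28-5p and miR-330-5p had log2 fold changes of 0.60 and 0.80 (DESeq2 adjusted p of 0.335 and 0.269). These arms were present before injection and cannot be assigned to a species, because their counts were nearly the same in both tables. Over the 12 libraries, miR-28-5p had 588 human and 589 mouse counts, miR-339-5p 977 and 980, and miR-330-5p 307 and 309. Their mouse sequences, with the seed in capitals, show the arms for which the tables count nearly the same reads.
mmu-miR-28a-5p: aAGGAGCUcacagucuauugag
mmu-miR-339-5p: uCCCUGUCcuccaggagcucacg
mmu-miR-330-5p: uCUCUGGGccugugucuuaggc

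They lie at chr16:24827868-24827889 (plus strand), chr5:139369708-139369730 (minus strand) and chr7:19181486-19181507 (plus strand), in the same host genes as their 3p arms. Among the mouse mature entries, the seed of miR-28a-5p also occurred in miR-708-5p and that of miR-330-5p in miR-326-3p. For the miR-28, miR-339 and miR-330 hairpins, the 3p arms alone had different counts in the human and mouse tables.

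Of 5 opposite mouse arms, 4 were counted in depleted libraries. Of these 1 was called higher and none lower, beside 4.84% called higher of 310 mouse-table miRNAs tested. It was mmu-miR-339-5p (log2 fold change 1.15, DESeq2 adjusted p = 0.00550), which rests on nearly the same reads as its human entry. This call can be assigned to a species no more than the human one, which was lost when any 1 mouse was left out. The only one of the 4 with a mouse count of its own, mmu-miR-345-3p, had 32, 61 and 26 counts before and 73, 137 and 127 after (DESeq2 log2 fold change 0.64 ± 0.37 SE, adjusted p = 0.238). In undepleted libraries no arm of either species passed independent filtering, with 0 at an unadjusted DESeq2 p under 0.05 and 0 calls with edgeR, beside 6.74% called higher of all human-table miRNAs tested there.

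Blood cell miRNAs were measured beside the members, since CPM values depend on the rest of the library. Of 6 red blood cell miRNAs in the human tables, 3 were called lower in depleted libraries after injection and none higher, against 1.86% called lower of all human-table miRNAs tested. The 3 were the erythroid miR-451a, miR-144-3p and miR-144-5p, with log2 fold changes of -1.10, -1.54 and -1.08 (DESeq2 adjusted p of 0.00301, 2.30e-05 and 0.00635). miR-486-5p and miR-16-5p both had a log2 fold change of -0.98 (DESeq2 adjusted p of 0.00581 and 0.00371), so only the 2-fold cut-off kept them from a call. miR-92a-3p had one of -0.20 (DESeq2 adjusted p = 0.763). In human-table CPM, however, miR-92a-3p was higher after injection in 3 of 3 mice, without overlap between the draws. In mouse-table CPM it was higher in 1 of 3 mice, with overlap. The median of the 6 was -1.03, and without mouse 1047 only 1 of them was called. In the mouse tables, which count nearly the same reads for most of them, 4 of 5 counted were called lower, beside 5.81% of all tested, and 1 without mouse 1047. Not counted there, under the pairing of names used, was miR-486-5p, the most abundant miRNA of the human tables. In undepleted libraries 2 were called lower in each table, beside 3.37% of the human and 2.78% of the mouse miRNAs tested.

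The red blood cell miRNAs held 66.4%, 70.1% and 61.5% of human-table counts before injection in mice 1046, 1047 and 1069, and 52.4%, 50.7% and 42.6% after it. Mouse 1069 had the lowest red blood cell share at both draws and the highest level of the 10 human miRNAs. With the most abundant miRNA, MIMAT0002177 (miR-486-5p), left out of the total, the mean of the 10 was 97.4 CPM instead of 64.8. With mouse-table totals it was 93.3. The part of red blood cell RNA in the change of the orthologs was not tested.

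White blood cell miRNAs showed no call in depleted libraries, beside 7.12% called of 323 human-table and 10.6% of 310 mouse-table miRNAs tested. With lists this short, no call says little about white blood cells. Among miR-223-3p, miR-142-5p, miR-142-3p and miR-150-5p in the human tables, 1 had an unadjusted DESeq2 p under 0.05 and edgeR called 0. That one was miR-223-3p, a myeloid miRNA, with 346, 318 and 335 CPM before and 736, 674 and 940.0 after injection (DESeq2 log2 fold change 0.60 ± 0.26 SE, adjusted p = 0.118). Of the 3 counted in the mouse tables, 0 were called, 1 had an unadjusted DESeq2 p under 0.05 and edgeR called 0. Not counted there, under the pairing of names used, was miR-142-3p. In undepleted libraries 0 were called in either table by DESeq2 or edgeR, with 0 at an unadjusted DESeq2 p under 0.05. Over all miRNAs tested there, DESeq2 called 10.1% in the human and 11.1% in the mouse tables.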

How the data were processed

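The authors trimmed adaptors with Cutadapt 1.8.1, applied a base quality filter (FASTX-Toolkit), mapped reads with Bowtie 1.1.2 without mismatches and assigned them to miRBase positions on GRCh37/hg19 and GRCm38/mm10. Per library they deposited raw read counts of mature miRNAs in 1 human and 1 mouse table (24 tables), in which the same read can occur in both. The handling of reads with several matches is not given in the sources used here. A miRNA that was not listed was taken as 0.

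CPM values, shares and exact (Clopper-Pearson) intervals at 95% were computed in Python 3.11.15 with SciPy 1.17.1. A count of 0 was read as up to 3 counts. DESeq2 1.42.0 in R 4.3.3 was run on the deposited counts with a term for the draw alone, the zero-centred prior on fold changes and independent filtering. Each table and library type was fitted apart, with Benjamini-Hochberg adjustment over the table. A call needed an adjusted p under 0.05 and at least 2-fold. This prior shrinks fold changes, most of all those of scarce miRNAs. edgeR 4.0.16 (quasi-likelihood test, TMM), TMM factors, a low count filter (4 counts in 3 libraries), no prior, no fold cut-off, a mouse block and leaving out each mouse were the alternatives. The fits were tested on simulated data.

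The members and lists were chosen with earlier results of these data known. Named were the 10 members, their mouse orthologs and opposite arms, a list of 6 red and 4 white blood cell miRNAs, human-table miRNAs meeting the rule of the members or just missing it (2 of 7 picked after their values were seen), and the 3 nearest profiles in each table. Mouse sequences and positions came from RefSeq and host genes from GENCODE M21, both on the mouse build of the files. These tables hold no miRBase accessions, so, other than planned, the accessions of orthologs, opposite arms and blood cell miRNAs were paired with names from general knowledge. The mouse numbers in the labels pair the draws of 1 animal. Deviations from the group means did not go together within an animal (mean r -0.15 in depleted libraries of either table, -0.20 and -0.21 in undepleted human and mouse libraries). Replicates are 3 mice of 1 experiment.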

Additional observations from a re-analysis of the deposited data

How the results depend on the processing

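Each member rests on 16 to 122 counts in depleted libraries, and mouse 1069 holds 77.5% of their sum. With the mouse as replicate block, 2 mouse orthologs, 1 opposite human arm and 3 human and 4 mouse blood cell miRNAs were called in depleted libraries, as without the pairing. Leaving out 1 mouse gave 1 to 2 orthologs, 0 to 0 human arms, 1 to 4 human and 1 to 4 mouse blood cell miRNAs. edgeR called 2 human arms (miR-483-5p added), and 5 human blood cell miRNAs were called by edgeR, without the prior or without the fold cut-off, against 3. Those added without the fold cut-off were miR-486-5p and miR-16-5p, both at a log2 fold change of -0.98 in the main fit. What moved the calls with edgeR and without the prior was not tested. Without mouse 1046 the log2 fold changes of mmu-miR-483-3p (0.01) and mmu-miR-500-3p (0.12) turned positive, and with 1 mouse left out they ranged from -0.13 to 0.01 and from -0.43 to 0.12. mmu-miR-339-3p kept its call in 8 of 8 alternatives (log2 fold change 1.10 to 1.53, adjusted p 2.13e-04 to 0.0262 over DESeq2 and edgeR) and mmu-miR-330-3p in 6 of 8 (0.97 to 1.79, adjusted p 0.00118 to 0.119). For human miR-339-5p the adjusted p ranged from 0.00394 to 0.291. The human share over the 6 pairs was 22.7% in undepleted against 7.82% in depleted libraries, and 2.81% to 10.7% with 1 mouse left out. The mean level of the 10 was 77.0 ± 42.9 CPM in undepleted libraries (SD, n = 3) and 24.5 to 89.6 with 1 mouse left out of the depleted ones. TMM factors shifted the median log2 fold change by -0.02 in human and 0.03 in mouse depleted libraries. All alternatives planned were run.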
